A study of Mus musculus with 16 samples.

Results

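The 3-day response of mouse CD4+ T cells to transforming growth factor beta (TGFb) was taken from 8 of the 16 arrays of the series, chosen by their titles: the 4 arrays of cells cultured with TGFb and the 4 of cells cultured with medium. All 8 cultures began as sorted naive CD4+ T cells and received anti-CD3 and anti-CD28 for 3 days, so the medium cultures were activated as well. The groups were STAT3-deficient cells with 2.5 ug/ml TGFb (2 arrays), WT cells with 2.5 ug/ml TGFb (2 arrays), STAT3-deficient cells with medium (2 arrays) and WT cells with medium (2 arrays); the dose unit is the one the labels give. The STAT3-deficient genotype is given as CD4 Cre; STAT3floxed, a Cre that acts in T lineage cells, and the WT genotype as STAT3floxed, so both carry the floxed allele. The sources used here do not give the age of the mice or say whether the replicates came from separate animals. Xist RNA, given below, parted the replicate numbers into material of female and of male type. The replicates of a group were thus not repeats of the same material. The fit behind the tests took out the shift between the replicate numbers within each genotype. The p-values thus measure the spread that was left after it over all 16 arrays, and not the spread between replicates. How many animals stand behind the samples is not given. Each TGFb array was paired with the medium array of the same genotype and replicate number, which gave 4 TGFb minus medium differences for each gene. The other 8 arrays, with IL-6 or with IL-6 and TGFb, entered the estimate of the spread and a comparison at the end.

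TGFb is a secreted cytokine that is held latent by its own propeptide and released by proteases and integrins. It binds a type II receptor, which activates a type I receptor; this phosphorylates Smad2 and Smad3, and these join Smad4 and enter the nucleus. The pathway induces its own brakes, among them the inhibitory Smads, the Ski and Skil corepressors and the Smurf ubiquitin ligases. In CD4+ T cells TGFb is known for inducing Foxp3 and regulatory T cells, for restraining Th1 and Th2 effector programmes and IL-2, for the integrin CD103 of tissue-resident cells and, together with STAT3-activating cytokines such as IL-6, for Th17 differentiation. STAT3 carries the IL-6 signal, so TGFb without IL-6 is a condition in which Smad-driven changes can be looked for in both genotypes.

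Levels below are log2 of the deposited intensity, and the values of 4 arrays are given in the order STAT3-deficient replicate 1, STAT3-deficient replicate 2, WT replicate 1, WT replicate 2. Changes are log2 differences, TGFb minus medium, averaged over the 4 pairs, with the standard error (SE) of a limma fit to all 16 arrays. A gene is said to have risen or fallen when its p-value, two-sided and adjusted by Benjamini-Hochberg over the 13007 genes tested, was under 0.05. Levels under log2 6 were treated as close to background, and the size of a change in which one group lies there depends on that background. The arrays measured bulk RNA, in which fewer cells of a type and less RNA per cell cannot be told apart.

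Stat3, the targeted gene, read 8.46, 10.46, 11.79 and 12.18 with TGFb, against 8.40, 9.13, 10.22 and 11.41 with medium; the STAT3-deficient arrays lay below the WT arrays of the same condition, and whether its probe set lies in the deleted part was not tested. All 9 T cell markers on the array (Cd3e and Cd4 among them) were above log2 8 on each of the 8 arrays. Markers of CD8 and gamma delta T cells, mast cells and erythroid cells all stayed under log2 8. So did 5 of 6 NK, 8 of 9 B cell, 12 of 13 myeloid and 7 of 9 dendritic cell markers. Of platelet markers 3 of 4 stayed there, and of stromal and epithelial markers 5 of 7. Ighm, at up to 11.83, was the highest of the exceptions. H2-Ab1, a dendritic cell marker, read 6.54, 10.41, 10.13 and 10.64 with TGFb, against 6.25, 10.06, 6.17 and 10.70 with medium. It did not pass the test (log2 change 1.14, adjusted p = 0.302). The part of such cells in the results was not tested. Over the series the replicate 1 arrays read Xist at 11.91 or more and the replicate 2 arrays at 7.60 or less, so the numbers part material of female from material of male type, and every value is given by replicate. The Actb control probe sets at the 5' and 3' ends of the transcript, a sign of RNA integrity, also parted the replicate numbers: in replicate 1 their difference (5' minus 3') was -0.45 to -0.20 with TGFb and -0.50 to -0.44 with medium, and in replicate 2 it was -1.24 to -0.89 with TGFb and -1.22 to -0.95 with medium. A pair of TGFb arrays stood apart from the others. STAT3-deficient TGFb replicate 1 read Il17a at 9.55, against 6.04 to 6.39 on the other 7 arrays, and WT TGFb replicate 1 read Foxp3 at 4.81, against 7.96 to 9.99 on the other TGFb arrays. Il17a did not pass the test over the pairs (log2 change 0.86, SE 0.54, adjusted p = 0.335).

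TGFb changed 1700 of the 13007 genes tested, 13.1% of them, in almost equal numbers each way. The 856 genes that rose (6.58%) had a median change of 0.84 and the 844 that fell (6.49%) a median of -0.79, while the median over all genes was 0.003. A change of at least 2-fold was reached by 315 of the genes that rose and 235 of those that fell. All 4 pairs moved the same way for 829 of the 856 and 827 of the 844, against 18.1% and 20% of all genes whose 4 pairs were all higher or all lower. The TGFb and medium arrays did not overlap for 562 of the 856 and 675 of the 844, against 7.2% of all genes in the higher and 10.3% in the lower direction. The calls were made on these same arrays and pairs, so the counts of pairs and of overlap follow in part from the calls. They are not separate support. The number of calls rested on single arrays: it was 225 without WT TGFb replicate 2, 338 without STAT3-deficient medium replicate 1, 844 without WT medium replicate 1, 852 without WT TGFb replicate 1, 872 without STAT3-deficient medium replicate 2, 998 without STAT3-deficient TGFb replicate 2 and 1719 without STAT3-deficient TGFb replicate 1. Without the pairing it was 634, all of them among the 1700.

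The 15 genes named for the largest increases rose by 7.42-fold to 39.2-fold. They were chosen among genes whose 4 pairs moved the same way, with no overlap between TGFb and medium arrays. Emp1, a tetraspan membrane protein first described in epithelia, read 9.28, 10.20, 8.79 and 11 with TGFb, against 4.52, 4.25, 5.25 and 4.09 with medium. It was close to background in all 4 medium cultures and well above it in all 4 TGFb cultures (39.2-fold, log2 change 5.29, SE 0.54, adjusted p = 0.00117). Another probe set of Emp1, with a mean level of 6.53 over the series, changed by only 0.0156. Maf, a transcription factor of IL-4, IL-10 and IL-21 production, read 11.37, 10.17, 9.92 and 9.90 with TGFb, against 4.95, 5.73, 5.32 and 5.29 with medium, a 32.4-fold increase (log2 change 5.02, SE 0.34, adjusted p = 9.67e-05). STAT3-deficient replicate 1 had the highest TGFb and the lowest medium level of Maf, and the other 3 pairs were nearly alike. Ctsw, cathepsin W, a lysosomal protease of cytotoxic lymphocytes, read 13.15, 12.48, 12.38 and 12.32 with TGFb, against 7.33, 8.52, 7.42 and 8.02 with medium (log2 change 4.76, SE 0.30, adjusted p = 7.83e-05). Its 4 TGFb levels lay close together (12.58 ± 0.39, SD, n = 4), far above the medium levels (7.82 ± 0.56, SD, n = 4). Nt5e, the ecto-enzyme CD73 that makes adenosine from AMP, read 12.19, 10.67, 9.97 and 11.68 with TGFb, against 7.28, 5.32, 7.69 and 7.35 with medium (log2 change 4.22, SE 0.45, adjusted p = 0.00132). Sgk1, a serum- and glucocorticoid-induced kinase, read 8.35, 12.47, 10.93 and 12.61 with TGFb, against 6.41, 7.10, 6.09 and 7.48 with medium (20-fold, adjusted p = 0.00701). STAT3-deficient replicate 1 moved least for Sgk1. Kctd14, a BTB domain protein, read 11.29, 10.98, 10.42 and 11.34 with TGFb, against 7.13, 7.43, 6.69 and 6.92 with medium (15.6-fold, adjusted p = 3.81e-05), with 4 TGFb values close together and no pair much different from the others. Adam19, a membrane metalloprotease, read 10.91, 10.13, 10.31 and 10.05 with TGFb, against 6.27, 6.46, 6.55 and 6.66 with medium (14.6-fold, adjusted p = 2.58e-06). Ctla2b, related to the propeptides of cysteine proteases, read 9.01, 10.25, 9.29 and 10.42 with TGFb, against 4.46, 7.92, 4.39 and 7.38 with medium (13-fold, adjusted p = 0.00747); its replicate 1 medium arrays were at background and its replicate 2 medium arrays above it. Aqp3, a water and glycerol channel, read 11.10, 9.29, 9.43 and 9.51 with TGFb, against 6.94, 6.54, 6.66 and 6.07 with medium (9.71-fold, adjusted p = 0.000842). Nupr1, a stress-induced chromatin protein, read 10.32, 9.69, 8.87 and 10.31 with TGFb, against 5.70, 7.26, 5.75 and 6.85 with medium (10.6-fold, adjusted p = 0.0032). The replicate 2 medium cultures held more Nupr1 than those of replicate 1, and all 4 TGFb cultures lay above them. Pdlim5, a PDZ and LIM domain scaffold, read 12.89, 10.87, 10.49 and 11.68 with TGFb, against 8.69, 8.06, 8.66 and 8.34 with medium (log2 change 3.04, SE 0.29, adjusted p = 0.00097), and another of its probe sets with a measured signal moved slightly the other way (-0.25). Ldlrad4, Ahr, Ikzf2 and Il18r1, the other genes of this set, are described with their groups.

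The 15 genes named for the largest decreases, chosen by the same rule, fell by 4.63-fold to 20.2-fold. Il2, the T cell growth factor, read 6.92, 5.25, 8.29 and 5.46 with TGFb, against 11.72, 10.50, 11.70 and 9.34 with medium. Every TGFb culture lay below every medium culture, by 20.2-fold on average (log2 change -4.33, SE 0.46, adjusted p = 0.00132). Slc17a6, a vesicular glutamate transporter, read 4.70, 4.52, 4.0 and 4.58 with TGFb, against 7.18, 8.69, 7.50 and 9.46 with medium (log2 change -3.75, SE 0.32, adjusted p = 0.000442), so that all 4 TGFb cultures were at background. Cst7, cystatin F, an inhibitor of the lysosomal proteases that activate granzymes, read 9.94, 8.07, 8.24 and 7.37 with TGFb, against 11.64, 11.90, 11.77 and 11.51 with medium (log2 change -3.30, SE 0.45, adjusted p = 0.00366). The medium levels of Cst7 lay close together (SD 0.17, n = 4), and STAT3-deficient replicate 1 kept the most of it with TGFb. Casp4, an inflammatory caspase that senses lipopolysaccharide, read 6.60, 6.30, 6.29 and 6.64 with TGFb, against 9.76, 9.41, 9.36 and 9.24 with medium (log2 change -2.98, SE 0.33, adjusted p = 0.00151), and Casp1, which cleaves pro-IL-1, read 6.58, 5.73, 5.78 and 6.04 with TGFb, against 8.80, 8.54, 8.32 and 7.99 with medium (log2 change -2.38, SE 0.42, adjusted p = 0.00984). Both caspases were at or near background in all 4 TGFb cultures. Ifih1, a cytosolic sensor of double-stranded RNA, read 8.22, 6.74, 7.99 and 6.60 with TGFb, against 10.61, 9.81, 10.34 and 9.74 with medium (6.67-fold, adjusted p = 0.00132). Slco4a1, an organic anion transporter, read 7.30, 7.95, 7.88 and 7.95 with TGFb, against 9.70, 10.85, 9.51 and 10.67 with medium (5.31-fold, adjusted p = 0.00232), and Gramd1b, a carrier of cholesterol between membranes, read 8.45, 7.63, 8.26 and 7.38 with TGFb, against 10.69, 10.12, 10.46 and 9.85 with medium (5.11-fold, adjusted p = 0.00151). Each of these 3 genes was lower with TGFb in all 4 pairs, without overlap. Tex15, known from male germ cells, read 6.82, 7.12, 7.48 and 5.93 with TGFb, against 8.75, 9.49, 8.65 and 9.30 with medium (4.63-fold, adjusted p = 0.00366). Stfa3, a stefin of cathepsin inhibition, read 5.46, 4.46, 4.81 and 4.95 with TGFb, against 10.06, 5.95, 9.78 and 6.15 with medium (log2 change -3.07, SE 0.72, adjusted p = 0.0251), and its medium level was far higher in replicate 1 than in replicate 2. Shtn1, shootin, a linker of actin and adhesion molecules, read 7.18, 5.21, 5.13 and 4.70 with TGFb, against 9.03, 7.20, 9.16 and 7.26 with medium (6.09-fold, adjusted p = 0.0169). Cth, which makes cysteine from cystathionine, read 5.32, 8.20, 8.19 and 8.18 with TGFb, against 10.41, 8.97, 10.21 and 9.30 with medium (log2 change -2.25, SE 0.53, adjusted p = 0.0257). The fall of Cth was larger in replicate 1. Csf2, Crtam and Dapl1, also of this set, are described with their groups. Stfa3, Shtn1 and Cth did not pass without WT TGFb replicate 1 or 2, STAT3-deficient medium replicate 1 or WT medium replicate 1 (adjusted p up to 0.122, up to 0.094 and up to 0.115), and STAT3-deficient TGFb replicate 1 ended the call of Stfa3 and replicate 2 that of Shtn1 as well. Casp1 did not pass without STAT3-deficient medium replicate 1 (adjusted p = 0.0611).

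**Figure D1:**
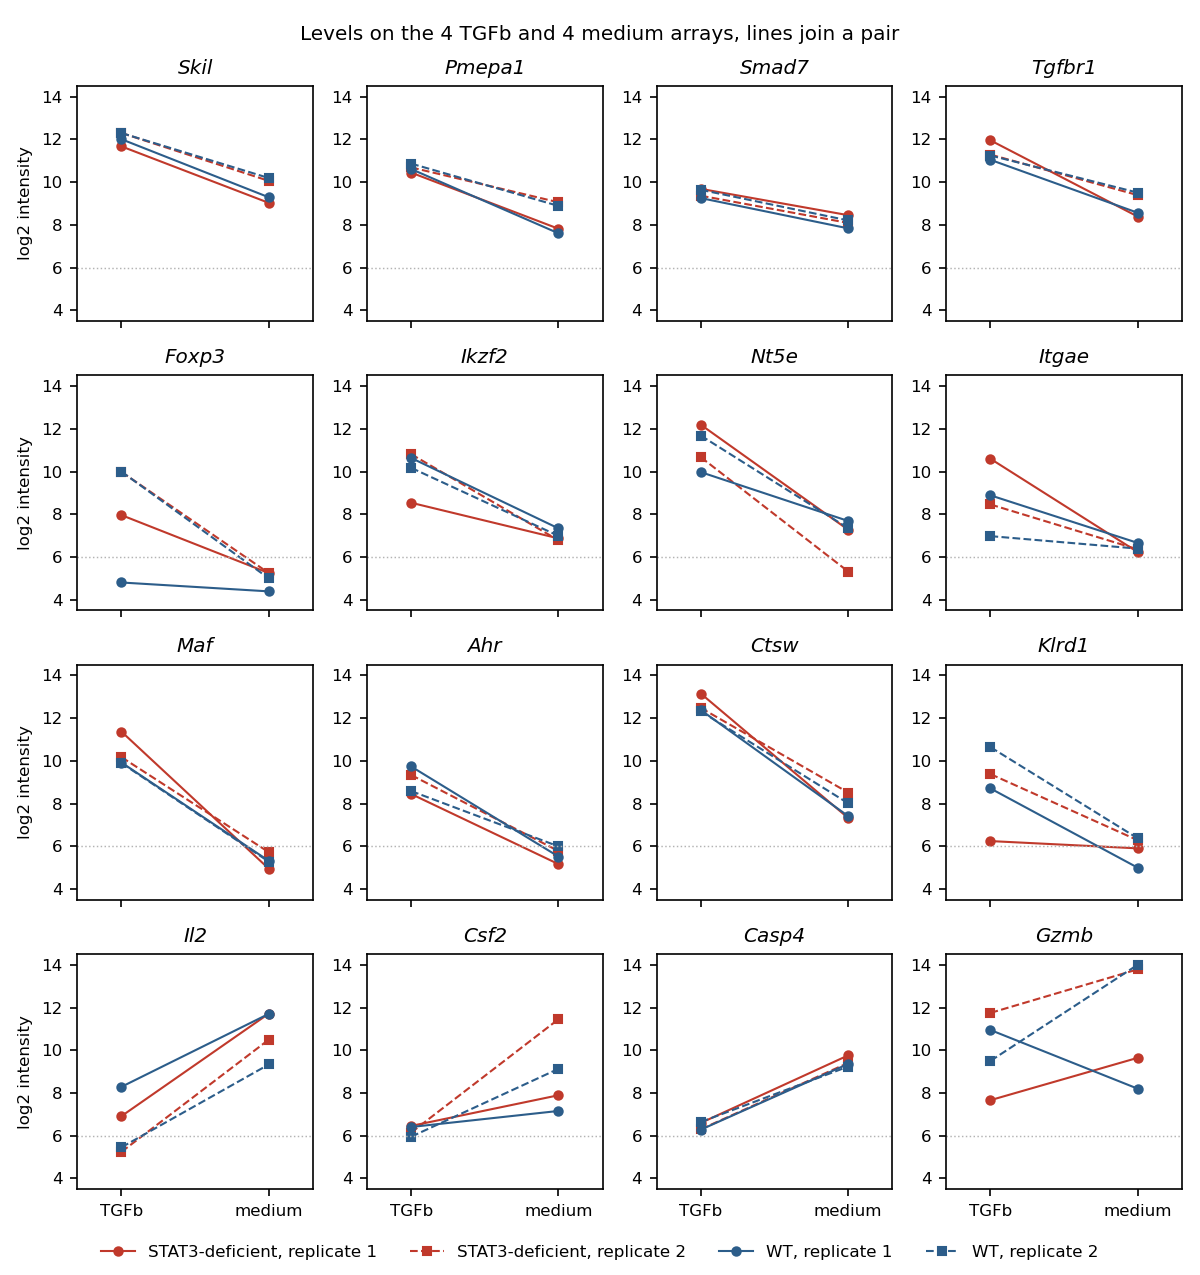
Levels of 16 genes (log2 intensity, vertical axis) on the 4 TGFb arrays (left of each panel) and the 4 medium arrays (right); lines join the arrays of a pair, red for STAT3-deficient and blue for WT cells, solid for replicate 1 and dashed for replicate 2, and the dotted line marks log2 6. Il2 and Casp4 lie lower with TGFb in all 4 pairs, Skil, Pmepa1, Smad7 and Tgfbr1 higher in all 4, and Gzmb moves the other way in WT replicate 1.

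The window from 250 bases before to 50 bases after the annotated start was searched on both strands for 3 motifs. The core Smad box is CAGAC, which reads as GTCTG when it lies on the other strand of the window. The Smad palindrome is GTCTAGAC, and the AP-1 site is TGANTCA. Neither holds the box, though TGANTCA can share its end bases with one. The windows come from RefSeq with GRCm38.p6 coordinates and covered 697 of the genes that rose (943 windows) and 694 of those that fell (831 windows). CAGAC was in 46.4% of the windows of genes that rose and 45.4% of those of genes that fell, against 48.2% of the 13350 windows of genes tested and 49.6% of all 32851 windows. TGANTCA was in 5.62% of the windows of genes that rose and 5.29% of those of genes that fell, against 5.35% for genes tested and 7.81% of all. GTCTAGAC was in 0.318% for genes that rose and 0.241% for genes that fell, against 0.285% for genes tested and 0.213% of all. Smad6 was 1 of the genes that rose with the palindrome, and is shown for that reason, chosen after its values were seen; Nt5e, with GTCTG at 2 places, and Il2, with none of the 3 motifs, are shown as a gene that rose and a gene that fell of the sets above. Capitals mark the motifs, each window is 300 bases and reads 5' to 3' on the gene's strand. Smad6 lies at chr9:64022010-64022309 (minus strand), Nt5e at chr9:88327359-88327658 (plus strand) and Il2 at chr3:37125905-37126204 (minus strand). A match is a run of letters and not a shown site of binding.
Smad6: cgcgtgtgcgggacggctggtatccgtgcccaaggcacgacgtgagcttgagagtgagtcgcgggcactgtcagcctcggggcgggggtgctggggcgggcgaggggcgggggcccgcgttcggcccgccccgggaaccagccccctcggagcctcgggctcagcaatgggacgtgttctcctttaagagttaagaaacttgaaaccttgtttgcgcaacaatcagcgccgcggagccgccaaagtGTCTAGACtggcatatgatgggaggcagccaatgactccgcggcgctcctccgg
Nt5e: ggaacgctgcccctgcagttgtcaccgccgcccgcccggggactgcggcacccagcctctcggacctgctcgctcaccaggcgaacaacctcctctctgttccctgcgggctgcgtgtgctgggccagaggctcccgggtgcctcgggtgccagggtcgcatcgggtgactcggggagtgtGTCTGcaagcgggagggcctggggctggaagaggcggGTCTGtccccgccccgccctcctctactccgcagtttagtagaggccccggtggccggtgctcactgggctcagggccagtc
Il2: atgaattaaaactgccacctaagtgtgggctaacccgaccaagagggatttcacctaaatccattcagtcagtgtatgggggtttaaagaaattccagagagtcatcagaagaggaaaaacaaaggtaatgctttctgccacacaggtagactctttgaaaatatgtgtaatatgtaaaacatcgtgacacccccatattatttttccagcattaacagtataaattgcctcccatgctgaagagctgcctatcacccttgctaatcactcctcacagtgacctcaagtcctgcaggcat

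Receptors of the TGFb family rose in number: 8 of the 18 receptor and Smad genes rose and none fell with limma (9 higher and 0 lower at an unadjusted p under 0.05), with a median change of 0.35 over the 18. Over all genes 6.58% rose and 6.49% fell, and 3790 of the 13007 had an unadjusted p under 0.05. The counts of each list are to be read against these shares. List members were chosen with earlier results of these data known, so an excess over the shares may be built in. Tgfbr1, the type I receptor of TGFb itself, read 11.96, 11.29, 11.05 and 11.25 with TGFb, against 8.39, 9.39, 8.57 and 9.51 with medium, a 5.35-fold increase (log2 change 2.42, SE 0.33, adjusted p = 0.00367). Bmpr2, the type II receptor of bone morphogenetic proteins, read 9.93, 10.06, 9.76 and 10.08 with TGFb, against 7.73, 8.16, 7.82 and 8.22 with medium (log2 change 1.98, SE 0.13, adjusted p = 9.67e-05). Its 4 pairs differed by little, and the SD over the 4 TGFb arrays was 0.15 and over the 4 medium arrays 0.25. Acvr2a, a type II receptor of activins, read 9.16, 8.08, 7.85 and 8.09 with TGFb, against 6.02, 5.95, 5.88 and 6.23 with medium (log2 change 2.27, SE 0.21, adjusted p = 0.000709). Acvrl1, a type I receptor best known from endothelium, read 6.41, 10.19, 8.55 and 10.08 with TGFb, against 5.98, 6.83, 6.07 and 7.22 with medium (log2 change 2.28, SE 0.66, adjusted p = 0.0494), and was near background in STAT3-deficient replicate 1 with and without TGFb. Acvrl1 did not pass without any of the 8 arrays other than STAT3-deficient TGFb replicate 1 (adjusted p 0.0992 to 0.165). Acvr1b, Bmpr1a, Acvr1 and Tgfbr2 rose by between 0.92 and 1.21. Smad3, the signalling Smad, read 8.35, 9.07, 8.28 and 9.27 with TGFb, against 8.20, 9.21, 7.77 and 9.07 with medium and did not pass the test (log2 change 0.18, SE 0.13, adjusted p = 0.402); none of the 10 receptor and Smad genes that did not pass exceeded 0.36 in either direction.

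Of the ligands and the genes of their release, 2 of 7 measured genes rose and none fell with limma (the same counts at an unadjusted p under 0.05). Furin, the convertase that cuts the TGFb propeptide, read 9.59, 10.24, 9.15 and 10.04 with TGFb, against 7.80, 8.85, 7.99 and 8.57 with medium (log2 change 1.45, SE 0.16, adjusted p = 0.00132). Itgav, the alpha chain of integrins that release latent TGFb, read 10.95, 11.23, 11.29 and 11.27 with TGFb, against 9.49, 10.83, 9.36 and 10.66 with medium (log2 change 1.10, SE 0.28, adjusted p = 0.0311). The increase of Itgav was 1.69 in replicate 1 and 0.50 in replicate 2. Itgav did not pass without STAT3-deficient TGFb replicate 1 or 2, WT TGFb replicate 1 or 2, STAT3-deficient medium replicate 1 or WT medium replicate 1 (adjusted p 0.058 to 0.151). Tgfb1, the ligand gene that T cells use most, read 9.43, 11.28, 9.35 and 11.19 with TGFb, against 9.77, 10.87, 10.30 and 10.74 with medium and did not pass (log2 change -0.11, SE 0.23, adjusted p = 0.798).

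The brakes of the pathway rose too: 8 of 16 rose and none fell with limma (9 higher and 2 lower at an unadjusted p under 0.05), with a median of 0.77 over the 16. Skil, the SnoN corepressor, read 11.67, 12.30, 12.01 and 12.30 with TGFb, against 9.03, 10.06, 9.29 and 10.19 with medium, a 5.38-fold increase (log2 change 2.43, SE 0.18, adjusted p = 0.000159). Pmepa1, a membrane protein that captures Smad2 and Smad3, read 10.45, 10.69, 10.61 and 10.87 with TGFb, against 7.82, 9.06, 7.61 and 8.89 with medium (log2 change 2.31, SE 0.24, adjusted p = 0.00126). Smad7, the inhibitory Smad that recruits ubiquitin ligases to the receptor, read 9.69, 9.37, 9.26 and 9.64 with TGFb, against 8.46, 8.09, 7.84 and 8.21 with medium (log2 change 1.34, SE 0.13, adjusted p = 0.00101). All 3 rose in each pair with no overlap between TGFb and medium. Smurf2, a ubiquitin ligase of the receptors and Smads, read 9.18, 10.18, 9.66 and 10.23 with TGFb, against 8.36, 9.10, 8.05 and 9.32 with medium (log2 change 1.11, SE 0.18, adjusted p = 0.00747), with 1 TGFb array below the highest medium array. Ski, the founding corepressor of that family, read 10.20, 10.13, 9.81 and 10.32 with TGFb, against 8.95, 9.49, 9.17 and 9.44 with medium (log2 change 0.85, SE 0.14, adjusted p = 0.00778). Tgif1, a homeodomain corepressor, read 9.97, 8.44, 8.27 and 8.58 with TGFb, against 8.35, 7.46, 8.46 and 7.55 with medium (log2 change 0.86, SE 0.22, adjusted p = 0.0345); it was lower with TGFb in WT replicate 1 and higher in the other 3 pairs. Ski did not pass without WT TGFb replicate 2 (adjusted p = 0.0584). Tgif1 did not pass without STAT3-deficient TGFb replicate 1, WT TGFb replicate 2, STAT3-deficient medium replicate 1 or 2 or WT medium replicate 2 (adjusted p 0.0911 to 0.174). Smad6, the inhibitory Smad of the bone morphogenetic protein branch, rose by 1.03 (SE 0.22, adjusted p = 0.019), and Smurf1 by 0.69. Ldlrad4, a membrane protein that binds Smads and dampens the pathway, was outside the fixed list of brakes and read 9.80, 9.43, 9.23 and 9.25 with TGFb, against 5.49, 4.39, 5.67 and 4.95 with medium (log2 change 4.30, SE 0.17, adjusted p = 2.58e-06). It was at background in each medium culture and moved by between 3.56 and 5.04 in the 4 pairs.

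**Figure D2:**
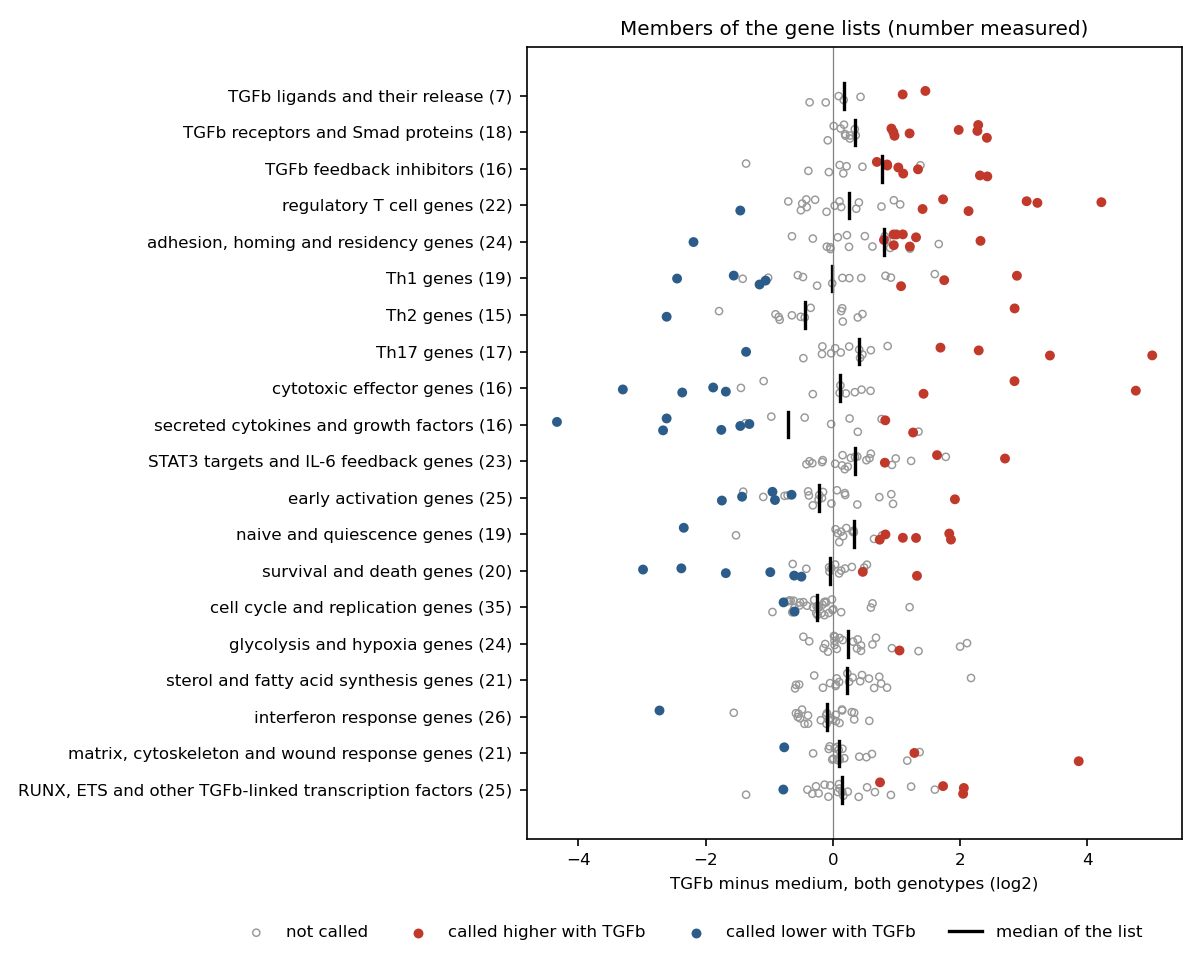
TGFb minus medium (log2, horizontal axis, mean of the 4 pairs) for the measured members of 20 gene lists (rows, number measured in brackets); filled red points rose, filled blue points fell, open points did not pass the test, and the bar is the median of the list. Receptors, feedback inhibitors and adhesion genes hold 8 filled red points each, and the cytokine list holds 6 filled blue ones.

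Regulatory T cell genes rose in part: 6 of 22 measured genes rose and 1 fell, with a median of 0.25. Foxp3, the lineage factor of regulatory T cells, read 7.96, 9.98, 4.81 and 9.99 with TGFb, against 5.25, 5.25, 4.39 and 5.0 with medium. It was clearly above background in 3 TGFb cultures, and the WT replicate 1 culture with TGFb was as low as the medium cultures, so the 4 differences ran from 0.41 to 4.99 (log2 change 3.21, SE 0.73, adjusted p = 0.0227). Foxp3 did not pass without STAT3-deficient TGFb replicate 2, WT TGFb replicate 2, STAT3-deficient medium replicate 1 or 2 or WT medium replicate 2 (adjusted p 0.0654 to 0.0911). Ikzf2, which encodes Helios, an Ikaros family factor of regulatory T cells, read 8.54, 10.81, 10.63 and 10.17 with TGFb, against 6.87, 6.78, 7.34 and 6.99 with medium (log2 change 3.04, SE 0.30, adjusted p = 0.00101). In WT replicate 1 Helios RNA was thus as high with TGFb as in the other WT culture, while Foxp3 was not. Nt5e belongs to this list as well, beside Entpd1, the CD39 ectonucleotidase that supplies AMP to it, which read 5.93, 8.37, 8.10 and 8.34 with TGFb, against 5.0, 6.27, 4.75 and 6.19 with medium (log2 change 2.13, SE 0.47, adjusted p = 0.02). STAT3-deficient replicate 1 stayed near background for Entpd1. Entpd1 did not pass without STAT3-deficient TGFb replicate 2, WT TGFb replicate 2, STAT3-deficient medium replicate 1 or 2 or WT medium replicate 1 (adjusted p 0.0604 to 0.103). Ikzf4, or Eos, a partner of Foxp3, read 10.33, 10.64, 9.79 and 10.58 with TGFb, against 8.34, 8.63, 8.39 and 9.05 with medium (log2 change 1.73, SE 0.17, adjusted p = 0.00101), with no overlap and similar increases in both genotypes. Il2ra, the CD25 chain of the IL-2 receptor, read 11.65, 11.46, 12.23 and 11.48 with TGFb, against 10.61, 12, 10.45 and 12.12 with medium and did not pass (log2 change 0.41, SE 0.52, adjusted p = 0.657): it was higher with TGFb in both replicate 1 pairs and lower in both replicate 2 pairs. Nrp1, neuropilin, read 9.85, 9.10, 8.13 and 10 with TGFb, against 9.81, 8.75, 9.98 and 8.93 with medium and did not pass either (log2 change -0.10, SE 0.52, adjusted p = 0.93). The 15 members of the list that did not pass lay between -0.70 and 1.06.

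Adhesion, homing and residency genes had 8 of 24 measured members that rose and 1 that fell, with a median of 0.81 over the list. Itgae, the CD103 chain that binds E-cadherin on epithelium, read 10.60, 8.46, 8.89 and 6.98 with TGFb, against 6.23, 6.36, 6.66 and 6.39 with medium (log2 change 2.32, SE 0.52, adjusted p = 0.022). All 4 TGFb cultures lay above all medium cultures, but the spread was wide: the increase was 3.30 in replicate 1 and 1.34 in replicate 2. Itgae did not pass without WT TGFb replicate 1 or 2, STAT3-deficient medium replicate 1 or 2 or WT medium replicate 1 (adjusted p 0.0647 to 0.1). Klf2, the factor that drives exit receptors in resting T cells, read 10.56, 9.81, 10.07 and 10.22 with TGFb, against 9.68, 7.67, 9.73 and 8.34 with medium (log2 change 1.31, SE 0.34, adjusted p = 0.0342), and Cxcr4, a homing receptor for Cxcl12, read 8.79, 10, 8.82 and 9.64 with TGFb, against 6.89, 9.25, 7.17 and 9.10 with medium (log2 change 1.21, SE 0.31, adjusted p = 0.0342). Klf2 moved more in replicate 2 and Cxcr4 more in replicate 1. Klf2 passed without either STAT3-deficient TGFb replicate 1 or WT medium replicate 1 and Cxcr4 without replicate 2 of either medium group, and neither passed without any other array (adjusted p up to 0.151 for Klf2 and up to 0.14 for Cxcr4). Gpr183, the oxysterol receptor EBI2 that positions activated T cells, fell: it read 7.42, 6.94, 7.93 and 6.88 with TGFb, against 9.77, 9.18, 9.53 and 9.45 with medium (log2 change -2.19, SE 0.28, adjusted p = 0.0026). S1pr1, Rgs16, Gpr15, Itgb2 and Selplg rose by between 0.80 and 1.10.

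Of the Th17 genes, 4 of 17 measured members rose and 1 fell, with a median of 0.41. Maf, given above, and Ahr, the aryl hydrocarbon receptor, led them. Ahr read 8.45, 9.34, 9.74 and 8.59 with TGFb, against 5.17, 5.78, 5.52 and 6.0 with medium (log2 change 3.41, SE 0.45, adjusted p = 0.00324), with all medium cultures at or under log2 6 and all TGFb cultures above 8. Rora, a retinoid-related orphan receptor of Th17 and innate-like cells, read 10.35, 9.19, 9.38 and 9.25 with TGFb, against 7.75, 7.50, 7.99 and 8.16 with medium (log2 change 1.69, SE 0.25, adjusted p = 0.00532); another measured probe set of it moved slightly the other way (-0.15). With the arrays STAT3-deficient TGFb replicate 1 and STAT3-deficient IL-6 with TGFb replicate 1 exchanged, Rora no longer passed (adjusted p = 0.0658). Ccl20, a chemokine for Ccr6-bearing cells, read 11.03, 8.56, 9.99 and 8.35 with TGFb, against 7.52, 7.0, 7.38 and 6.87 with medium (log2 change 2.29, SE 0.45, adjusted p = 0.014). The culture that carried Il17a RNA, STAT3-deficient replicate 1, had the highest level of Maf, Rora and Ccl20, and the other 3 pairs were higher with TGFb for all 3 genes too. Ccl20 did not pass without STAT3-deficient medium replicate 1 (adjusted p = 0.0771). Batf, an AP-1 factor needed for Th17 cells, fell by 1.36.

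Of the cytotoxic genes 3 of 16 measured members rose and 4 fell, against 6.58% of all genes that rose and 6.49% that fell. Klrd1, the CD94 chain of NK receptors, read 6.25, 9.38, 8.71 and 10.64 with TGFb, against 5.91, 6.29, 5.0 and 6.38 with medium (log2 change 2.85, SE 0.39, adjusted p = 0.00367). It rose strongly in 3 pairs, and STAT3-deficient replicate 1 stayed near background with TGFb. Klrd1 was also the 1 NK marker that rose of 6 on the array; the other 5 stayed under log2 8, and the summed intensity of the 6 was 242 to 1754 with TGFb and 185 to 247 with medium. The part of NK cells in the result was not tested. Crtam, an adhesion molecule of cytotoxic CD4+ cells, read 8.28, 5.86, 6.70 and 5.78 with TGFb, against 9.64, 8.31, 9.70 and 8.43 with medium (log2 change -2.37, SE 0.61, adjusted p = 0.0341), and Fasl, the death ligand, read 6.98, 7.67, 7.18 and 6.85 with TGFb, against 8.45, 9.74, 8.12 and 9.09 with medium (log2 change -1.68, SE 0.23, adjusted p = 0.0038). Crtam and Fasl were lower with TGFb in all 4 pairs, beside Cst7 and Serpinb9, the granzyme B inhibitor, while Ctsw and Klrc1 rose. Crtam did not pass without any of the 8 arrays other than STAT3-deficient TGFb replicate 1 (adjusted p 0.0522 to 0.151).

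Of the secreted cytokines, 6 of 16 measured members fell and 2 rose (Pdgfb and Tnfsf10), with a median of -0.70, against 6.49% of all genes that fell and 6.58% that rose. After Il2, Csf2 (GM-CSF) read 6.46, 6.15, 6.41 and 5.95 with TGFb, against 7.89, 11.45, 7.16 and 9.13 with medium (log2 change -2.67, SE 0.75, adjusted p = 0.0444) and Il3 read 4.86, 4.95, 6.48 and 4.52 with TGFb, against 7.77, 9.29, 6.46 and 7.73 with medium (log2 change -2.61, SE 0.62, adjusted p = 0.0258). The TGFb levels of both were close to background, and WT replicate 1 did not lose Il3. For Csf2 the SD was 0.24 over the TGFb and 1.88 over the medium arrays, and for Il3 0.87 over the TGFb and 1.16 over the medium arrays (n = 4 each). Tnfsf8, the CD30 ligand, read 7.83, 6.49, 7.11 and 6.64 with TGFb, against 8.45, 9.14, 8.03 and 9.47 with medium (log2 change -1.75, SE 0.44, adjusted p = 0.0298). Il9, a cytokine that TGFb and IL-4 induce together, is of the Th2 list and not of this one. It rose, and read 6.64, 10.46, 10.68 and 9.43 with TGFb, against 5.49, 7.34, 5.98 and 6.98 with medium (log2 change 2.86, SE 0.64, adjusted p = 0.0218). STAT3-deficient replicate 1 had the lowest Il9 of the TGFb cultures and overlapped with the medium cultures. Csf2 did not pass without any of the 8 arrays other than STAT3-deficient TGFb replicate 1 (adjusted p 0.0538 to 0.185). Il3 did not pass without STAT3-deficient TGFb replicate 2, WT TGFb replicate 2, STAT3-deficient medium replicate 1 or 2 or WT medium replicate 2 (adjusted p 0.0747 to 0.134). Of the 8 arrays, 6 left out singly ended the calls of Tnfsf8 (adjusted p up to 0.144) and of Il9 (adjusted p up to 0.104), WT TGFb replicate 2 and STAT3-deficient medium replicate 1 with the highest p for each.

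Of the Th1 genes, 3 of 19 measured members rose and 4 fell, against 6.58% of all genes that rose and 6.49% that fell. The Th2 genes, with 1 of 15 higher (Il9) and 1 lower (Il3), were at the share of all genes. Il18r1, a chain of the IL-18 receptor, read 11.42, 8.69, 8.35 and 10.19 with TGFb, against 7.62, 6.02, 7.71 and 5.73 with medium (log2 change 2.89, SE 0.55, adjusted p = 0.0133), and Txk, a Tec family kinase, read 10.28, 9.47, 8.37 and 9.65 with TGFb, against 8.60, 6.49, 8.34 and 7.33 with medium (log2 change 1.75, SE 0.33, adjusted p = 0.0117). Ccl3, an inflammatory chemokine, read 6.32, 6.92, 8.33 and 5.55 with TGFb, against 10.31, 9.37, 9.22 and 8.01 with medium (log2 change -2.45, SE 0.44, adjusted p = 0.0104), and Stat4, the transducer of IL-12, read 6.70, 9.42, 9.30 and 9.05 with TGFb, against 9.68, 10.94, 9.19 and 10.89 with medium (log2 change -1.56, SE 0.39, adjusted p = 0.0291). Stat4 was a little higher with TGFb in WT replicate 1 and lower in the other 3 pairs. Without WT TGFb replicate 2, Il18r1 (adjusted p = 0.0773), Txk (adjusted p = 0.066), Ccl3 (adjusted p = 0.0633) and Stat4 (adjusted p = 0.149) did not pass, and Il18r1 (adjusted p = 0.0611), Ccl3 (adjusted p = 0.0623) and Stat4 (adjusted p = 0.135) did not without STAT3-deficient medium replicate 1. Stat4 was also lost without STAT3-deficient TGFb replicate 1 or replicate 2 of either medium group.

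The lineage factors Tbx21, Eomes and Gata3 and the effector products Ifng, Gzmb, Prf1 and Il4 did not pass the test, and for Tbx21, Ifng, Gzmb, Eomes and Gata3 the WT replicate 1 pair went against the other 3. Tbx21, the Th1 factor T-bet, read 5.04, 9.05, 9.82 and 8.29 with TGFb, against 7.60, 10.66, 5.88 and 10.26 with medium (log2 change -0.55, SE 0.90, adjusted p = 0.741). It was lower with TGFb in 3 pairs and higher by 3.94 in WT replicate 1. Ifng read 4.39, 7.80, 8.57 and 4.46 with TGFb, against 6.15, 9.78, 4.70 and 8.65 with medium (log2 change -1.02, SE 1.02, adjusted p = 0.568) and Gzmb, granzyme B, read 7.67, 11.75, 10.95 and 9.50 with TGFb, against 9.65, 13.79, 8.20 and 14 with medium (log2 change -1.44, SE 1.00, adjusted p = 0.384). Both were lower with TGFb in 3 pairs and higher in WT replicate 1, by 3.87 for Ifng and 2.75 for Gzmb. Without WT medium replicate 1, Gzmb passed (log2 change -2.99, adjusted p = 0.0287), and so did Ifng (log2 change -2.60, adjusted p = 0.044). Eomes, a T-box factor related to T-bet, read 6.17, 6.87, 8.32 and 6.36 with TGFb, against 7.01, 7.19, 6.81 and 7.70 with medium (log2 change -0.25, SE 0.45, adjusted p = 0.767), with the same 1 pair going up. Gata3, the Th2 factor, read 7.75, 9.35, 8.86 and 8.59 with TGFb, against 7.97, 11.01, 8.16 and 10.75 with medium (log2 change -0.83, SE 0.57, adjusted p = 0.38), and Il4 read 5.70, 6.73, 7.92 and 5.13 with TGFb, against 5.36, 11.79, 5.67 and 9.82 with medium (log2 change -1.79, SE 1.22, adjusted p = 0.378), higher with TGFb in both replicate 1 pairs and lower in both replicate 2 pairs. The medium level of Il4 and Gzmb was far higher in replicate 2 than in replicate 1, in both genotypes. Prf1, perforin, read 7.34, 6.48, 6.43 and 6.43 with TGFb, against 6.52, 6.02, 5.64 and 6.11 with medium, higher with TGFb in all 4 pairs, and missed the threshold (log2 change 0.59, SE 0.18, adjusted p = 0.0564). Another measured probe set of Prf1 moved the other way (-0.31). Ccr8, a receptor of Th2 and regulatory cells, read 8.06, 8.73, 8.0 and 8.32 with TGFb, against 5.43, 9.08, 5.36 and 8.39 with medium (log2 change 1.21, SE 0.58, adjusted p = 0.203): it was much higher in both replicate 1 pairs and slightly lower in both replicate 2 pairs. Stat3 itself was higher with TGFb in each pair and missed the threshold (log2 change 0.93, SE 0.29, adjusted p = 0.0621). It passed without STAT3-deficient TGFb replicate 1 (log2 change 1.34, adjusted p = 0.00804), and without WT medium replicate 2 Prf1 (adjusted p = 0.0284) and Ccr8 (adjusted p = 0.0463) passed. Stat3 also passed with array weights, with the mean of all its probe sets and with the 2 STAT3-deficient arrays exchanged or both left out (adjusted p 0.0157 to 0.0416), and Prf1 with array weights (adjusted p = 0.0468).

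**Figure D3:**
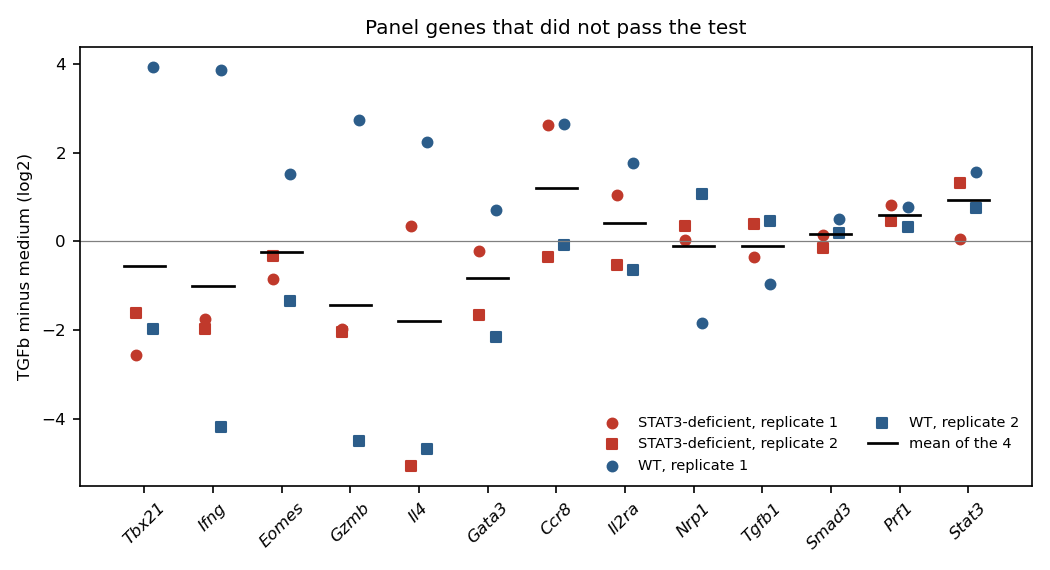
TGFb minus medium (log2, vertical axis) in each of the 4 pairs for 13 genes of the fixed panel that did not pass the test; red marks STAT3-deficient and blue WT pairs, circles replicate 1 and squares replicate 2, and the bar is the mean of the 4. WT replicate 1 lies above zero for Tbx21, Ifng, Eomes, Gzmb, Il4 and Gata3, while WT replicate 2 lies below zero for all 6.

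Of the early activation genes 5 of 25 fell and 1 rose, and of the genes of naive or quiescent cells 6 of 19 rose and 1 fell, against 6.58% of all genes that rose and 6.49% that fell. Nr4a2, an orphan receptor induced by antigen receptor signals, read 8.43, 8.30, 8.69 and 7.88 with TGFb, against 9.87, 10.31, 9.73 and 10.36 with medium (log2 change -1.74, SE 0.43, adjusted p = 0.029), Egr3, a zinc finger factor of the same signals, read 9.33, 8.76, 9.54 and 8.20 with TGFb, against 10.17, 10.57, 10.11 and 10.68 with medium (log2 change -1.43, SE 0.35, adjusted p = 0.028), and Dusp6, a phosphatase of ERK, read 10.31, 9.99, 10.25 and 9.52 with TGFb, against 11.18, 10.52, 11.49 and 10.67 with medium (log2 change -0.95, SE 0.19, adjusted p = 0.0148). All 3 were lower with TGFb in each pair without overlap. Other probe sets with a measured signal were slightly higher for Nr4a2 (0.065) and Egr3 (0.26). Jun, a component of AP-1, rose and read 8.65, 10.44, 10.27 and 11.10 with TGFb, against 7.61, 8.37, 7.52 and 9.28 with medium (log2 change 1.92, SE 0.34, adjusted p = 0.0104). Pik3ip1, an inhibitor of PI3K, read 10.35, 8.88, 8.06 and 9.22 with TGFb, against 7.71, 6.82, 7.19 and 7.37 with medium (log2 change 1.86, SE 0.29, adjusted p = 0.0069), and Tsc22d3, the glucocorticoid-induced leucine zipper, read 9.27, 9.88, 9.55 and 9.71 with TGFb, against 7.26, 8.38, 7.25 and 8.21 with medium (log2 change 1.83, SE 0.26, adjusted p = 0.00443). Dapl1, a gene of naive-like and memory T cells, went the other way and read 7.08, 7.95, 9.05 and 7.73 with TGFb, against 10.48, 10.06, 10.13 and 10.50 with medium (log2 change -2.34, SE 0.40, adjusted p = 0.00904). Nr4a2 passed without STAT3-deficient or WT TGFb replicate 1 and Egr3 without these or WT medium replicate 1, and neither passed without any other array (adjusted p up to 0.149 for Nr4a2 and up to 0.137 for Egr3). Dusp6 did not pass without WT TGFb replicate 2, STAT3-deficient medium replicate 1 or WT medium replicate 1 (adjusted p 0.0503 to 0.0909). Jun did not pass without WT TGFb replicate 2 or STAT3-deficient medium replicate 1 (adjusted p 0.0563 to 0.0584). Dapl1 did not pass without STAT3-deficient medium replicate 1 (adjusted p = 0.0576).

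Of the survival and death genes, 6 of 20 measured members fell and 2 rose, against 6.49% of all genes that fell and 6.58% that rose. The falls held Casp4, Casp1, Fasl and, with smaller changes, the BCL-2 family members Bid, Bak1 and Bcl2l1, which promote (Bid, Bak1) or oppose (Bcl2l1) cell death. Tnfrsf1b, the second TNF receptor, rose and read 10.13, 9.19, 9.17 and 9.23 with TGFb, against 8.45, 7.71, 8.52 and 7.76 with medium (log2 change 1.32, SE 0.22, adjusted p = 0.00749). Tnfrsf1b did not pass without WT TGFb replicate 2 (adjusted p = 0.0521). Of 35 cell cycle genes, none rose and 2 fell with limma, against 6.58% of all genes that rose and 6.49% that fell. At an unadjusted p under 0.05, 2 were higher and 15 lower, against 3790 of the 13007 genes in either direction. The median of the list was -0.25. Mcm3, of the replicative helicase, read 10.73, 10.84, 11.36 and 10.51 with TGFb, against 11.77, 11.41, 11.84 and 11.52 with medium (log2 change -0.77, SE 0.21, adjusted p = 0.039), and Cdk1, the mitotic kinase, read 10.85, 11.35, 11.41 and 11.22 with TGFb, against 11.77, 11.82, 11.79 and 11.86 with medium (log2 change -0.60, SE 0.14, adjusted p = 0.0257). Another probe set of Mcm3 was slightly higher (0.22). Mcm3 did not pass with any of the 8 arrays left out (adjusted p 0.0662 to 0.174). Cdk1 did not pass without 6 of them (adjusted p up to 0.129).

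Among the remaining lists, no gene of sterol and fatty acid synthesis passed with limma (0 of 21). At an unadjusted p under 0.05 there were 5, against 3790 of the 13007 genes tested. No interferon response gene other than Ifih1 passed (1 of 26). Of 24 glycolysis and hypoxia genes, P4ha1, a collagen prolyl hydroxylase, rose (log2 change 1.04, SE 0.28, adjusted p = 0.0396), with TGFb and medium levels overlapping. In STAT3 target and IL-6 feedback genes, 3 of 23 rose and none fell with limma (7 higher and 1 lower at an unadjusted p under 0.05). Lgals3, galectin-3, read 11.33, 10.92, 11.34 and 10.88 with TGFb, against 7.74, 8.85, 7.76 and 9.31 with medium (log2 change 2.71, SE 0.42, adjusted p = 0.0065), with TGFb levels of 11.12 ± 0.25 (SD, n = 4). Gem, a small GTPase, rose by 1.64 (SE 0.42) and Bcl3, a coactivator of NF-kB, by 0.82 (SE 0.24). Of matrix and cytoskeleton genes, Adam19 and Vim rose and Tpm1 fell, of 21, which is near the share of all genes (6.58% higher and 6.49% lower). Vim, vimentin, read 12.84, 14, 13.67 and 14.13 with TGFb, against 12.21, 12.32, 12.24 and 12.74 with medium (log2 change 1.28, SE 0.28, adjusted p = 0.0196), and Tpm1, tropomyosin, fell by 0.76. Of transcription factors linked to TGFb, 4 of 25 rose and 1 fell. Ikzf3, or Aiolos, read 11.16, 10.63, 11.24 and 9.98 with TGFb, against 8.10, 9.47, 8.08 and 9.13 with medium (log2 change 2.06, SE 0.39, adjusted p = 0.0133), and Klf10, the TGFb-inducible early gene, read 8.07, 8.45, 8.52 and 8.69 with TGFb, against 5.75, 7.09, 5.46 and 7.24 with medium (log2 change 2.05, SE 0.33, adjusted p = 0.00749). Ets2 fell by 0.78. Ikzf3 did not pass without STAT3-deficient medium replicate 1 (adjusted p = 0.076). Vim did not pass without WT TGFb replicate 2, STAT3-deficient medium replicate 1 or 2 or WT medium replicate 1 (adjusted p 0.0572 to 0.105). At least 6 of the 8 arrays, left out singly, ended the calls of P4ha1 (adjusted p up to 0.142), Gem (adjusted p up to 0.123), Bcl3 (adjusted p up to 0.171), Tpm1 (adjusted p up to 0.0877) and Ets2 (adjusted p up to 0.136).

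With 2 pairs a genotype, no gene was found to respond differently in STAT3-deficient and WT cells. None passed the test of the difference between genotypes (0 of 13007 with limma, and 121 at an unadjusted p under 0.05); without STAT3-deficient TGFb replicate 2 there were 8. Taken alone, the STAT3-deficient pairs gave 246 calls (1.89% of genes tested) and the WT pairs 56 (0.431%), and 50 genes were called in both, 43 higher and 7 lower. These counts moved with 1 array, between 12 and 327 for STAT3-deficient cells and between 4 and 209 for WT cells. All 166 genes that rose (1.28%) and all 80 that fell (0.615%) in STAT3-deficient cells moved the same way in WT cells, against 52.4% and 47.6% of all genes. The WT arrays shared the estimate of the spread and the level filter behind these calls, and without either WT TGFb replicate 1 or WT TGFb replicate 2 there were 135 calls in STAT3-deficient cells, 131 of them among the 246. Both WT pairs moved that way for 165 of the 166 and 79 of the 80, against 34.5% and 30.5% of all genes. The median change of the 166 was 1.42 in STAT3-deficient and 1.14 in WT cells, and that of the 80 was -1.31 in STAT3-deficient and -1.02 in WT cells. All 48 genes that rose (0.369%) and all 8 that fell (0.0615%) in WT cells moved the same way in STAT3-deficient cells, with medians of 1.95 in STAT3-deficient and 1.91 in WT cells for the genes that rose. Across the 13007 genes, which are not independent replicates, the changes of both genotypes had a Pearson r of 0.76 and a Spearman rho of 0.69. Single pairs were less even. Between the genotypes r was 0.87 for the replicate 2 pairs and 0.37 for the replicate 1 pairs. It was 0.51 for STAT3-deficient replicate 2 with WT replicate 1, and 0.55 for STAT3-deficient replicate 1 with WT replicate 2. Between replicates 1 and 2 it was 0.49 in STAT3-deficient and 0.47 in WT cells.

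Single genes show how closely or how loosely the genotypes can be compared. For Bmpr2 the change was 2.05 in STAT3-deficient and 1.90 in WT cells, with a 95% interval of the difference of -0.44 to 0.74. For Smad7 it was 1.25 in STAT3-deficient and 1.42 in WT cells (interval -0.77 to 0.42), and for Skil 2.44 in STAT3-deficient and 2.41 in WT cells (interval -0.75 to 0.82). For these 3 genes the interval, taken for 1 gene at a time, stayed inside a 2-fold difference in either direction. For Foxp3 the change was 3.72 in STAT3-deficient and 2.71 in WT cells with an interval of -2.26 to 4.29, and for Il2 it was -5.02 in STAT3-deficient and -3.65 in WT cells with an interval of -3.44 to 0.69. The intervals of Foxp3 and Il2 hold differences of more than 4-fold. Over the 78 genes named that passed the pooled test, the interval reached 0.59 to 3.35 either side of the difference, with a median of 1.44. Klrd1 was the 1 of the 91 genes named whose genotype difference had an unadjusted p under 0.05: it changed by 1.72 in STAT3-deficient and 3.99 in WT cells (difference -2.27, interval -4.02 to -0.52, adjusted p = 1).

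**Figure D4:**
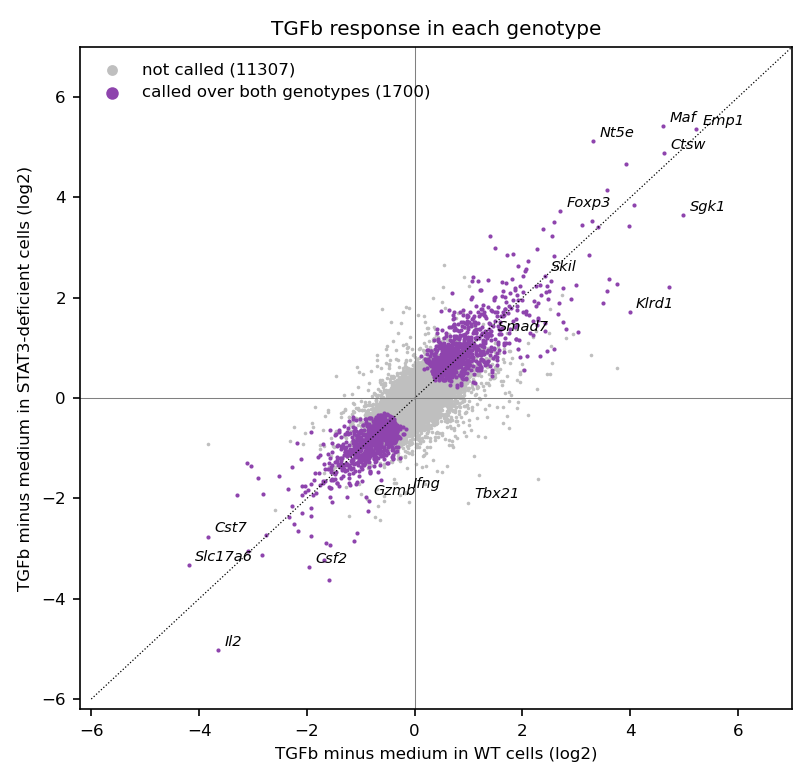
TGFb minus medium (log2) in STAT3-deficient cells (vertical axis, mean of 2 pairs) against the same change in WT cells (horizontal axis, mean of 2 pairs), 1 point per gene; purple points passed the test over both genotypes and the dotted line marks equal changes. The 1700 purple points lie along the line, with Emp1, Maf and Ctsw at the upper right and Il2 at the lower left, while Tbx21 lies below it on the right.

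TGFb was also added to IL-6, on 8 arrays (4 with IL-6 and TGFb, 4 with IL-6) other than those of the comparison above. All 16 arrays shared the estimate of the spread, the replicate block and the level filter. The calls above were thus not independent of the IL-6 arrays. The 8 TGFb and medium arrays fitted alone gave 959 calls, 850 of them among the 1700. With TGFb added to IL-6, 463 genes passed the test (3.56%), 331 higher (2.54%) and 132 lower (1.01%). Of the 856 genes that rose with TGFb alone, 801 (93.6%) were also higher when TGFb was added to IL-6, against 47.2% of all genes, and 491 were higher in all 4 of those pairs, against 11.7%. Of the 844 that fell, 749 (88.7%) were also lower, against 52.8% of all genes, and 278 were lower in all 4 pairs, against 10.5%. The test with IL-6 called 245 of the 856 and 73 of the 844 in the same direction and none in the opposite one. The changes were smaller with IL-6, with medians of 0.54 over the 856 and -0.28 over the 844, in sets that were chosen for their change without IL-6. Across the 13007 genes the changes without and with IL-6 had a Pearson r of 0.64 and a Spearman rho of 0.50.

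In the mean of both genotypes, all 15 genes with the largest increases and all 15 with the largest decreases kept their direction with IL-6. Of them, 13 and 6 passed there. Single pairs with IL-6 went the other way for Nupr1 (WT replicate 2, -0.33), Dapl1 (WT replicate 1, 0.55), Crtam (STAT3-deficient replicate 2, 1.24) and Il2 (WT replicate 2, 0.30). Ikzf2 passed with IL-6, where its pairs changed by 4.83 and 4.15 in STAT3-deficient but 0.41 and 0.24 in WT cells. Nt5e changed by 4.90 with IL-6 and 4.22 without, Ctsw by 3.74 with IL-6 and 4.76 without, and Skil by 1.93 with IL-6 and 2.43 without. Bmpr2 changed by 2.12 with IL-6 and 1.98 without. Nupr1 changed by 0.75 with IL-6 and 3.41 without, and Il2 by -1.44 with IL-6 and -4.33 without. Il2 read 7.77, 8.23, 7.91 and 8.13 with IL-6 and TGFb, against 10.86, 9.84, 9.28 and 7.83 with IL-6, so that WT replicate 2 did not lose it. The differences for Nupr1 and Il2 did not pass the test (adjusted p = 0.475 for each). Gzmb, which did not pass without IL-6, passed with it (log2 change -4.31, SE 1.00, adjusted p = 0.0469): it read 8.82, 11.22, 8.09 and 8.60 with IL-6 and TGFb, against 12.98, 13.71, 13.76 and 13.52 with IL-6. All 4 pairs fell there, WT replicate 1 included, and the difference from the change without IL-6 did not pass (adjusted p = 0.554).

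Gpr15, a homing receptor for the large intestine, was the 1 gene of 13007 (0.00769%) whose TGFb response differed with and without IL-6 (1229 at an unadjusted p under 0.05). With IL-6 and TGFb it read 6.73, 6.13, 9.84 and 9.80, against 5.52, 5.29, 5.09 and 4.70 with IL-6, a change of 2.98. Without IL-6 it read 5.70, 5.58, 6.69 and 5.86 with TGFb, against 5.13, 4.70, 5.17 and 5.0 with medium, a change of 0.96 (SE 0.15, adjusted p = 0.00646). The difference was 2.02 in the mean of both genotypes (adjusted p = 0.0369). The level of both WT cultures with IL-6 and TGFb stood above that of every other culture. In STAT3-deficient cells the pairs changed by 1.20 and 0.84 with IL-6, and by 0.57 and 0.88 without. In WT cells they changed by 4.75 and 5.10 with IL-6, and by 1.52 and 0.86 without. Without IL-6, only WT replicate 1 with TGFb was above log2 6, so the rest were close to background. No gene passed this test under 13 of 18 alternatives, among them 6 of the 8 that leave out 1 array: each medium array, STAT3-deficient TGFb replicate 1 and WT TGFb replicate 2.

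**Figure D5:**
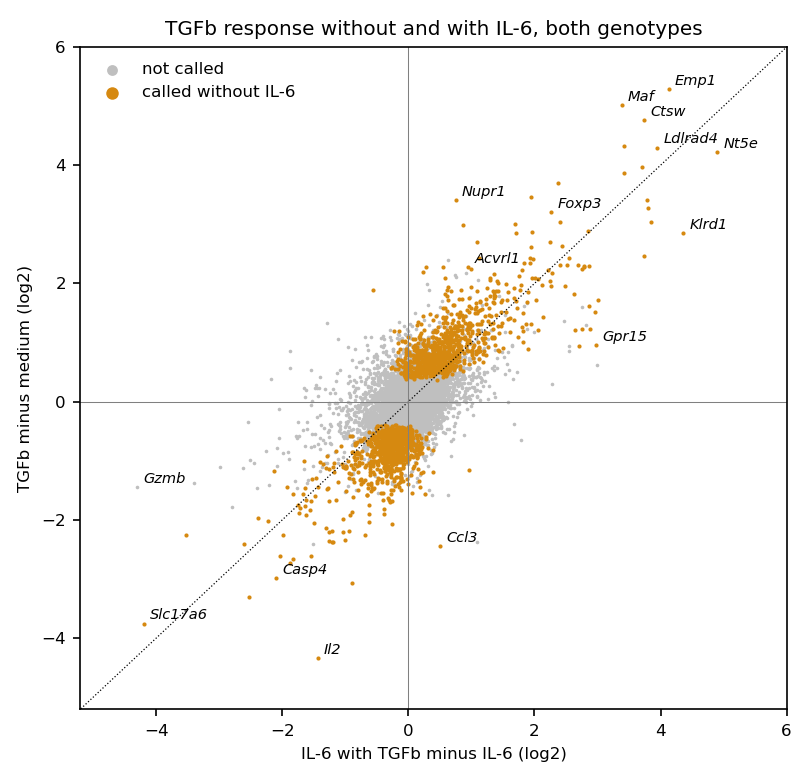
TGFb minus medium without IL-6 (log2, vertical axis, mean of 4 pairs) against the change when TGFb was added to IL-6 (horizontal axis, mean of 4 other pairs), 1 point per gene; orange points passed the test without IL-6 and the dotted line marks equal changes. Emp1, Maf, Ctsw and Nt5e lie at the upper right, Il2 and Nupr1 nearer the vertical axis than the line, and Gpr15 to the right of the line.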

How the data were processed

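Gene expression was measured on 16 Affymetrix arrays, 1 per sample. Per the labels' protocols, the RNA was total RNA from a MirVana kit, given biotin with a MessageAmpII kit. The deposited values are intensity values on a linear scale, whole numbers between 6 and 37243, summarised by the authors with RMA, per the submitters' processing notes; the sources used here give neither its settings nor how RMA values became linear. Array medians lay between 66 and 73. No scanner file or detection call was used here, and the number of arrays limits the precision.

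Deposited intensities were log2-transformed without a pseudocount. Of 45101 probe sets 64 were array controls; the platform annotation gave 1 gene symbol to 34945, several to 932 and none to 9160. Where a gene had several probe sets, the one with the highest mean was used, and 13007 of 18193 genes were tested, those at or above log2 6 on at least 2 arrays. Values were fitted in limma 3.58.1 (R 4.3.3) with 8 group means and the replicate number within genotype as a block (6 residual and 3.77 prior degrees of freedom), and 6 comparisons were tested two-sided with Benjamini-Hochberg adjustment. The pairing follows the titles; same-numbered groups deviated together in all 28 group pairs (correlation 0.11 to 0.86, median 0.33). The procedure was tested on simulated data.

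Genes named are the 15 with the largest change each way whose 4 pairs move the same way without overlap, a panel of 25 (2 of them not reported here), genes whose response differed between genotypes or with IL-6, and up to 4 called members of each of 20 lists; further members are named beside their counts. Members, panel and lists were chosen with earlier results of these data known. Of the 78 genes named that passed, 42 have other probe sets, and 5 of these have a measured one of opposite sign. The alternatives were 11 changes of processing or of arrays used and the 8 fits that leave out 1 array.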

Additional observations from a re-analysis of the deposited data

Results flagged for a closer look

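The 4 paired differences of each of the 91 genes named were searched for a highest or lowest value that lay apart. By the criterion used (Dixon's 95% value for 4), chance alone gives this in about 1 of 20 genes. Maf, Sgk1, Casp4 and Tbx21 met the criterion, about as many as that rate gives. Maf was set apart by STAT3-deficient replicate 1, where TGFb minus medium was 6.41 (log2), against 4.45 to 4.61 in the other pairs. Sgk1 was set apart by the same pair, at 1.94. Casp4 was set apart by WT replicate 2, whose decrease was the smallest, at -2.59. Tbx21 was set apart by WT replicate 1, at 3.94, while the other 3 pairs were negative. Gpr15 was the gene whose TGFb response differed with and without IL-6, by 2.02 on the log2 scale in the mean of both genotypes. The call was lost under most of the alternatives tried.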

How the results depend on the processing

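Without the replicate block, 634 genes passed over both genotypes (331 higher, 303 lower), 46 in STAT3-deficient and 29 in WT cells, 180 for TGFb added to IL-6 and 0 for the difference with and without IL-6; the pooled calls of Fasl and Smurf2 were lost there and under no other alternative. Fitting the 8 TGFb and medium arrays alone gave 959 pooled calls, 6 in STAT3-deficient and 0 in WT cells. With the Actb 5' minus 3' difference as a covariate the counts were 1028 pooled, 65 in STAT3-deficient, 19 in WT cells, 271 with IL-6 and 0 for the IL-6 difference. Array weights gave 52 calls in STAT3-deficient and 346 in WT cells, and the mean of all probe sets of a gene gave 130 in STAT3-deficient cells. Exchanging the STAT3-deficient arrays numbered 1 of TGFb and of IL-6 with TGFb gave 102 in STAT3-deficient cells, 118 in WT cells and 763 with IL-6, and leaving both out gave 49 in STAT3-deficient and 144 in WT cells. The IL-6 difference had 0 calls under each of these 3 last-named choices of arrays or weights, under quantile normalization and with the stricter level filter. Other alternatives moved the pooled count to between 1276 and 1742. Leaving out 1 array gave 225 to 1719 pooled calls, 12 to 327 in STAT3-deficient and 4 to 209 in WT cells, 0 to 8 for the genotype difference, 330 to 595 with IL-6 and 0 to 3 for the IL-6 difference; such a fit also drops a pair. The cause of these shifts was not tested.

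Of the 78 genes named that passed, 37 passed under all 19 alternatives and none changed direction, and all 78 had the same direction within replicate number 1 and within replicate number 2. Without STAT3-deficient TGFb replicate 1, 70 of them passed. All 78 were called on the same pairs that give these directions, and some were chosen because their pairs moved the same way. Their shared direction within each replicate number thus follows in part from the choice and is not separate support. The alternatives reuse these arrays as well, so the lack of a change in direction is not independent of the calls. Direction changed for genes that had not passed. With the STAT3-deficient arrays exchanged, Tbx21 was 0.54, Ifng 0.34 and Eomes 0.0175, and with both left out Eomes was 0.0462. With 1 array left out, Tbx21 ran from -1.92 to 0.82, Ifng from -2.60 to 0.57, Eomes from -0.77 to 0.28, Gzmb from -2.99 to 0.10, Nrp1 from -0.62 to 0.42, Tgfb1 from -0.40 to 0.18 and Il2ra from -0.28 to 1.09.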
